A study of Mus musculus with 6 samples.

Results

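The genes described here encode receptor chains of the interleukin-6 (IL-6) cytokine family and the JAK kinases, measured in mouse liver 1 h after IL-6. They were chosen by name, as Il6ra, Il11ra1, Cntfr, Il6st, Lifr, Osmr, Jak1, Jak2, Tyk2 and Jak3. Of these 10 genes, 8 had a probe set that the platform table assigns to that gene alone, out of 19938 genes with such a probe set. The 8 are 5 receptor chains and 3 kinases, each read by 1 probe set. The expression of Il11ra1, which the platform table does not list, was not analysed here, and the probe set listed for Jak3 is shared with Insl3, its neighbour on chromosome 8.

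Liver samples from male C57BL6 mice aged 10 weeks, all fasted for 16 h beforehand, were compared in 2 groups. The IL-6 group of 3 arrays came from mice injected intraperitoneally with 100 ng of IL-6 per mouse, and the saline group of 3 arrays from mice injected with saline, with liver taken 1 h after either injection. Whole liver was used, so hepatocytes and all other liver cells contributed RNA, and fewer cells of a type cannot be told apart from less RNA per cell. The labels do not state that each array held its own mouse, and p-values cover the spread among the arrays, which may be partly technical.

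IL-6 binds the receptor chain encoded by Il6ra, and the pair then recruits gp130, the signalling chain encoded by Il6st. JAK kinases bound to gp130 phosphorylate each other and the gp130 tail, where the transcription factor STAT3 docks and is phosphorylated in turn. Other cytokines of the family share gp130 but use other partners, and in liver the pathway is known for inducing acute-phase proteins and the feedback inhibitor SOCS3.

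Levels are given on the log2 scale, in which a difference of 1 is a 2-fold change. The 6 array medians ran from 5.42 to 5.48 over 35556 probe sets, and arrays of the same group correlated at 0.989 to 0.991, against 0.987 to 0.990 between groups. All 8 measured hepatocyte markers, among them Alb for albumin lay at or above the 96.0th percentile of gene levels. The second principal component, with 23.1% of the variance, set IL-6 replicate 3 and saline replicate 2 apart from the other 4 arrays, and the labels name no batch.

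As most genes did, receptor and kinase transcripts differed little between livers taken 1 h after IL-6 and those taken after saline. None of the 8 genes passed limma's test at an adjusted p under 0.05 over all genes, against 0.421% of all 19938 genes (84 called). Split by direction, 0 of the 8 were called higher and 0 lower, against 0.386% and 0.0351% of all genes. At an unadjusted p under 0.05 in limma, 1 of the 8 passed, Il6st, against 6.62% of all genes. Fold values of IL-6 over saline lay between 0.868 for Il6ra and 1.22 for Il6st. The 95% confidence intervals of the 8 genes ran from 0.744-fold at the lowest bound to 1.38-fold at the highest. Taken 1 gene at a time, all 8 intervals excluded a change of 1.5-fold in either direction, as did those of 97.1% of all genes. That bound was set after seeing values. At these shares, neither the intervals nor the lack of calls is particular to these 8 genes. Of the 8 differences 6 were positive and 2 negative, with a median of 0.08 on the log2 scale beside 0.0026 over all genes, 51.1% of which were positive.

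**Figure D1:**
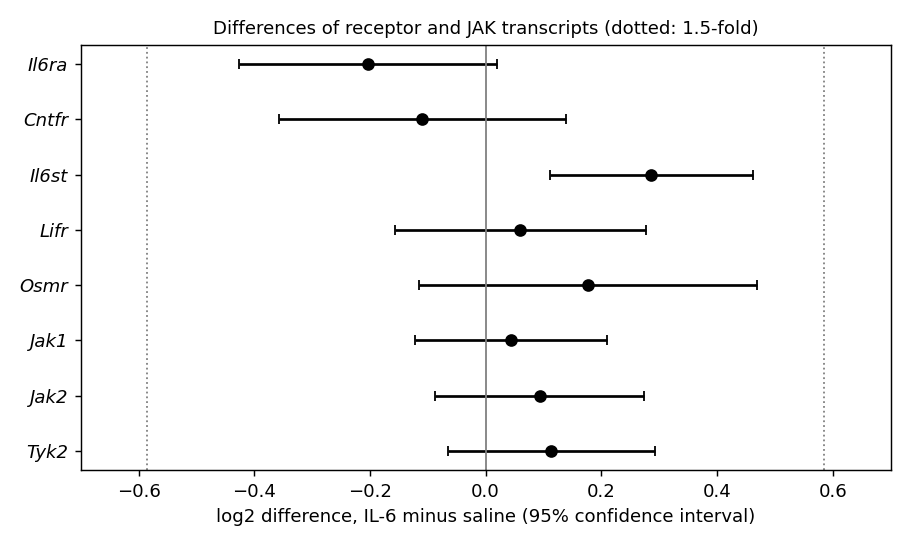
Log2 differences of IL-6 minus saline for the 5 receptor chains and 3 JAK kinases, with 95% confidence intervals from limma (n = 3 arrays per group); dotted lines mark 1.5-fold in either direction. The interval of Il6st lies above 0, those of the other 7 genes span 0, and all 8 stay inside the dotted lines.

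The upstream sequences of 3 receptor genes are shown first, because Il6st and Il6ra are the genes whose groups did not overlap and Osmr shares a word with Il6st. Each is the 250 bases before the start of transcription annotated by RefSeq on GRCm38.p6, written on the strand of the gene. Il6st lies on chromosome 13 (chr13:112463820-112464069, plus strand), Osmr on chromosome 15 (chr15:6874314-6874563, minus strand) and Il6ra on chromosome 3 (chr3:89913197-89913446, minus strand). Capitals mark matches to TTNNNNGAA on either strand, a loose form of the STAT-binding palindrome TTCNNNGAA.
Il6st: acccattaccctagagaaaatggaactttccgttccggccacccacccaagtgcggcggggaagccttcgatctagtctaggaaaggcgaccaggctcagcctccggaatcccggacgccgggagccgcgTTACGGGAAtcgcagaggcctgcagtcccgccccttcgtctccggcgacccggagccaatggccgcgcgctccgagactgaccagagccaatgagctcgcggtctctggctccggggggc
Osmr: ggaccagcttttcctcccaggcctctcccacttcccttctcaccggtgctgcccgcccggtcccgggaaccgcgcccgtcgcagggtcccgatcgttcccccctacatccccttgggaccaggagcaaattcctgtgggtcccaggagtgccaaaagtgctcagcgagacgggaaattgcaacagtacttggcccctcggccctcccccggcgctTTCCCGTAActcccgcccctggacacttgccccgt
Il6ra: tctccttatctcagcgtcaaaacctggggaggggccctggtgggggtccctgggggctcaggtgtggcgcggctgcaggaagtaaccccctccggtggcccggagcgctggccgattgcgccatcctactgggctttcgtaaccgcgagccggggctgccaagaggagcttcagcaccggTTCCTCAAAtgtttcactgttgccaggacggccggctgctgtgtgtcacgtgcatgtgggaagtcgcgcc

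RefSeq listed 17 such upstream windows for all 10 genes, of which Cntfr had 6, and Il11ra1 and Lifr 2 each. Windows of the same gene can share bases, so the 17 are not independent. The palindrome TTCNNNGAA, searched on both strands, was in 0 of the 17 windows, against 7.02% of all 32851 windows. The loose form TTNNNNGAA, which takes in every match to the palindrome, was in 9 of the 17 windows and in 34.2% of all windows. Il6st held it as TTACGGGAA, beginning 120 bases before the start. In Osmr the same 9 letters lie on the opposite strand, their far end 35 bases before the start, and 0.0974% of all windows (32 of 32851) held that word on either strand. The word was picked after it was seen in both genes, so its rarity is a description, and a match shows neither binding nor a cause.

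Both measured ligand-binding chains had a lower mean in IL-6 livers, without passing the test. Il6ra encodes the chain that binds IL-6 itself, which hepatocytes carry on their surface. Its log2 level was 8.77, 8.53 and 8.80 in IL-6 livers, against 8.85, 9.04 and 8.82 in saline livers. All 3 IL-6 values lay below all 3 saline values, as in 5.48% of all genes, but the highest IL-6 and the lowest saline value were almost level. Group means were 8.70 ± 0.15 in IL-6 and 8.90 ± 0.12 in saline livers (SD, n = 3 each), a difference of -0.20 ± 0.10 (standard error; limma adjusted p = 0.798), or 0.868-fold with a 95% interval from 0.744 to 1.01. Without IL-6 replicate 2 the difference was -0.12.

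Cntfr encodes the binding chain for ciliary neurotrophic factor, which signals together with LIFR and gp130. Its level was 5.69, 5.55 and 5.30 in IL-6 livers, against 5.48, 5.69 and 5.69 in saline livers. The groups overlapped, and the difference of -0.11 (95% interval from -0.36 to 0.14) did not pass (limma adjusted p = 0.939). It was -0.0038 without IL-6 replicate 3 and turned to 0.031 when saline replicate 2 was left out as well. Its mean level stood at the 45.8th percentile of all genes, the only one of the 8 below the median, and how far it stood above background could not be assessed from these values.

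Among the signalling chains the groups did not overlap in Il6st, as in 6.15% of all genes with IL-6 higher, while they overlapped in Lifr and Osmr. Il6st encodes gp130, the signalling chain that IL-6 shares with its relatives. Its log2 level was 9.70, 9.58 and 9.75 in IL-6 livers, against 9.43, 9.40 and 9.33 in saline livers. The lowest IL-6 array was above the highest saline array, with little spread inside either group. The means were 9.67 ± 0.09 in IL-6 and 9.39 ± 0.05 in saline livers (SD, n = 3 each), a difference of 0.29 ± 0.08 (standard error), or 1.22-fold with a 95% interval from 1.08 to 1.38. The unadjusted limma p was 0.00486, and adjusted over all genes it was 0.362, so Il6st was not called.

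Lifr encodes the receptor for leukemia inhibitory factor, and Osmr the partner of gp130 in the oncostatin M receptor. No other protein-coding gene lies between them on chromosome 15 in the RefSeq table. Lifr was at 8.790, 8.938 and 9.002 in IL-6 livers, against 8.868, 8.986 and 8.695 in saline livers. Its difference was 0.06 (95% interval from -0.16 to 0.28, limma adjusted p = 0.963) and turned to -0.02 without saline replicate 3, so these arrays give it no direction.

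Osmr was at 6.22, 5.82 and 6.27 in IL-6 livers, against 6.04, 5.99 and 5.75 in saline livers. IL-6 replicates 1 and 3 were above all saline arrays, and replicate 2 was above only saline replicate 3. The difference was 0.18 ± 0.13 (standard error, n = 3 each; limma adjusted p = 0.903). Without IL-6 replicate 2 it was 0.32, the highest of the alternatives, with a limma adjusted p of 0.671, and without saline replicate 3 it was 0.087, the lowest. Leaving out IL-6 replicate 3 gave 0.095, and leaving out IL-6 replicate 1 gave 0.12. Of the 8 genes, Osmr had the widest interval, from -0.11 to 0.47.

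**Figure D2:**
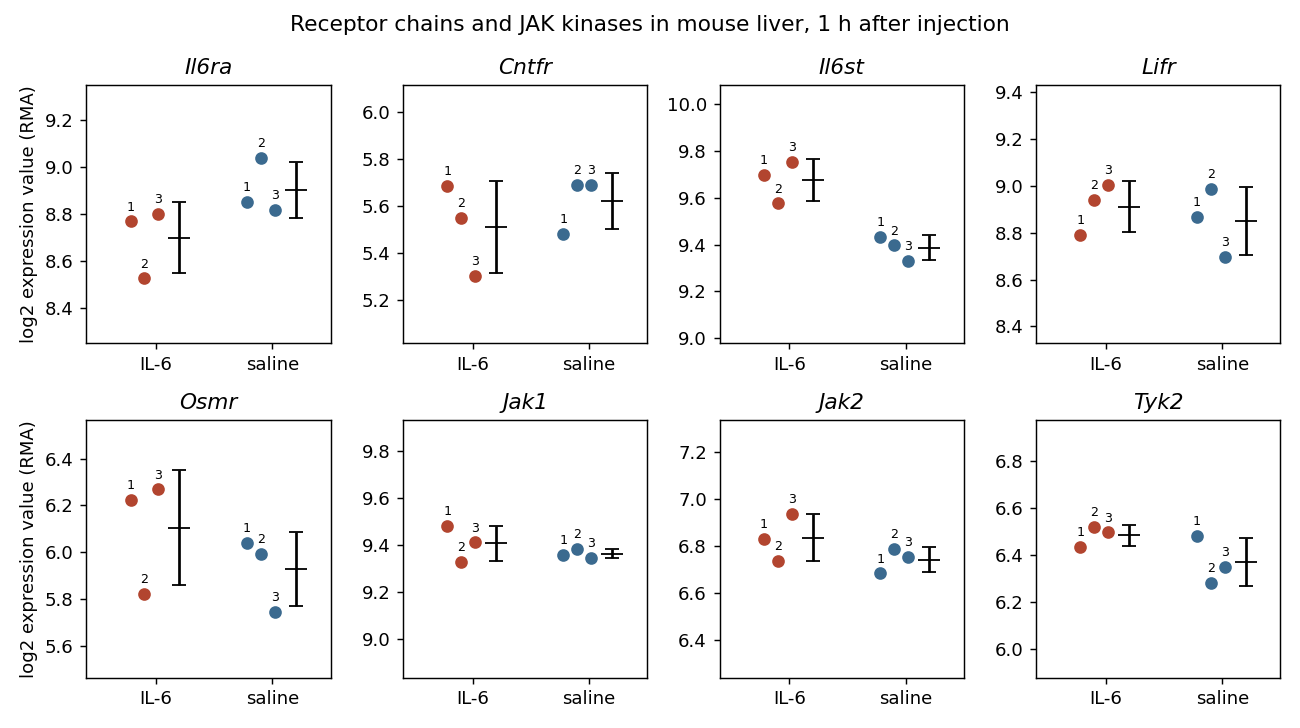
Log2 expression values of 8 genes in each array, with IL-6 arrays left and saline arrays right in each panel; numbers are replicates, and bars give the mean and SD of 3 arrays. Every panel spans the same height on the log2 scale, and the groups do not overlap in Il6st and Il6ra.

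In 2 of the 8 genes, Il6st upward and Il6ra downward, the groups did not overlap, as was the case in 11.6% of all genes (6.15% with IL-6 higher and 5.48% with IL-6 lower). The other 6 overlapped. IL-6 replicate 2 had the lowest value of the 3 IL-6 arrays in 5 of the 8 genes, and in 32.1% of all genes. That array also had the highest summed level of 9 Kupffer cell and macrophage markers, whose range was 9.71 to 9.99 in IL-6 and 9.63 to 9.81 in saline arrays on the log2 scale. By mean log2 difference from the saline mean, it was also the highest IL-6 array for neutrophil (0.13) and lymphocyte markers (0.05). It was the lowest IL-6 array for endothelial (-0.09) and hepatocyte markers (-0.02). The part of any of these cell types in the receptor values was not tested.

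The shared chain and the IL-6-binding chain were also compared within each array, which cancels any scaling of a whole array. The 2 genes were paired with their separate differences already known, 1 with IL-6 above saline and 1 below in every array, so the separation of the groups in the ratio follows from the choice and is no further support. Only the change of the ratio can be read, since they are different probe sets. Relative to the saline mean, the log2 ratio of Il6st to Il6ra was 0.44, 0.56 and 0.47 in IL-6 livers, against 0.10, -0.13 and 0.03 in saline livers. The mean ratio in IL-6 livers was 0.49 above that in saline livers, or 1.41-fold, which is the sum of the sizes of both genes' differences and is given without a test. Leaving out any 1 array gave differences from 0.43 to 0.54.

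**Figure D3:**
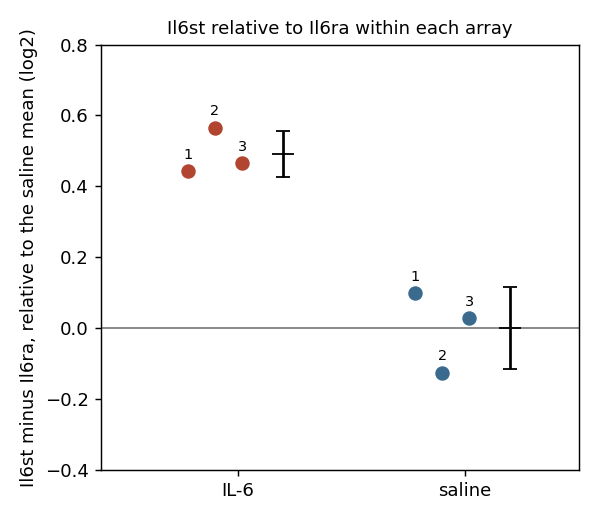
Log2 ratio of Il6st to Il6ra in each array, relative to the mean of the saline arrays; numbers are replicates, and bars give the mean and SD of 3 arrays. The IL-6 arrays lie between 0.44 and 0.56, and the saline arrays between -0.13 and 0.10.

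The JAK kinases were close to level in both groups. Jak1 encodes the kinase on which gp130 signalling depends most. Its log2 level was 9.48, 9.33 and 9.41 in IL-6 livers, against 9.36, 9.38 and 9.34 in saline livers. IL-6 replicate 2 was the lowest of all 6 arrays, and the groups overlapped. The difference was 0.04 with a 95% interval from -0.12 to 0.21 (limma adjusted p = 0.963), the narrowest interval of the 8 genes.

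Jak2 encodes the kinase that also serves the growth hormone and erythropoietin receptors. It was at 6.83, 6.74 and 6.94 in IL-6 livers, against 6.68, 6.79 and 6.75 in saline livers, a difference of 0.09 (95% interval from -0.09 to 0.27, limma adjusted p = 0.920). Tyk2, whose kinase also serves the type I interferon receptor, was at 6.44, 6.52 and 6.50 in IL-6 livers, against 6.48, 6.28 and 6.35 in saline livers. Its difference was 0.11 (95% interval from -0.06 to 0.29, limma adjusted p = 0.899), and here saline replicate 1 reached into the range of the IL-6 arrays.

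The probe set listed for both Jak3 and Insl3 cannot be given to either gene. JAK3 is the kinase of the common gamma chain receptors of lymphocytes, and Insl3 encodes a peptide hormone of the testis. The probe set read 6.932, 6.753 and 6.887 in IL-6 livers, against 6.749, 6.672 and 6.650 in saline livers. The groups did not overlap, as in 6.15% of all genes with IL-6 higher, but the lowest IL-6 and the highest saline value were almost level. The difference of the probe set was 0.17 ± 0.08 (standard error, n = 3 each; limma adjusted p = 0.817 over all 35556 probe sets). The summed level of 8 T, NK and B cell markers, of which 6 lay below the 25th percentile of all genes, ranged from 7.23 to 7.46 in IL-6 and from 7.28 to 7.46 in saline arrays, so this marker sum overlapped.

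The groups did not overlap in the summed markers of 2 other cell types, although they did in most single markers. Among all genes taken singly, 11.6% did not overlap, and no such share was computed for sums. The summed level of 5 cholangiocyte markers was 8.17 to 8.28 in IL-6 and 7.96 to 8.02 in saline arrays on the log2 scale. Only Sox9 of the 5 did not overlap, at a difference of 0.41, and Cftr had -0.09. Summed without Sox9, the other 4 ranged from 7.071 to 7.199 in IL-6 and from 6.999 to 7.206 in saline arrays, and overlapped. The summed level of 9 stellate cell and fibroblast markers was 11.19 to 11.24 in IL-6 and 10.98 to 11.17 in saline arrays. Of the 9, only Reln did not overlap, Des and Rgs5 had negative differences, and without Dcn and Ecm1 the sum overlapped, at 9.66 to 9.72 in IL-6 and 9.58 to 9.68 in saline arrays. None of these 14 markers passed limma's test, and their part in the Il6st value was not tested. Sox9, Dcn and Ecm1 were left out after their values were seen. The overlap of the reduced sums can therefore follow from that choice and is no further result. Summed endothelial, hepatocyte, Kupffer cell, neutrophil and lymphocyte markers overlapped between the groups. Of these lists 1 marker was called, the neutrophil gene S100a8, which rose by 0.65 ± 0.09 (limma adjusted p = 0.0211) at a mean level below the 25th percentile of all genes. Only 2 of the 7 neutrophil markers, S100a8 included, had a positive difference. The median of that list was -0.01, and S100a9 was also at -0.01.

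By root mean square difference of values centred on the saline mean, over 6 arrays and among the 9969 genes above the median level, Slc11a2 was closest to Il6st at 0.038. It encodes an iron and divalent metal transporter. Next were Sema4b at 0.045, and at 0.048 Ifnar2, which encodes a chain of the type I interferon receptor that uses TYK2 and JAK1. Their differences were 0.28, 0.30 and 0.25 on the log2 scale, and none was called (limma adjusted p = 0.375, 0.342 and 0.531). These genes were picked for values like those of Il6st in the same arrays, so similar differences follow from the choice and are no support. A profile within 0.1 of that of Il6st was found in 150 of the 9969 genes, so the likeness is not particular to the genes named here. Within 0.1 of the profile of Osmr there were 22. For Osmr the closest, picked in the same way, were Baz1a at 0.055, Flcn at 0.057 and Mtss1 at 0.069, again with no call.

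Around these receptors and kinases the calls lay in Stat3, the feedback genes and the targets, against 0.421% of all genes called. At that share a short list without a call is no result about its genes. None of the 8 measured ligands of the family passed, with a median difference of 0.03 and the smallest p at Ebi3 (-0.13 ± 0.09), a subunit of IL-27. Of 6 STAT factors 1 rose, Stat3, by 0.52 ± 0.09 (limma adjusted p = 0.04996), and the median of the list was 0.24. Its call was lost when any array but IL-6 replicate 2 was left out. Of 8 SOCS family feedback inhibitors 3 rose, Socs3 by 3.15 ± 0.11, Cish by 1.22 ± 0.16 and Socs2 by 0.86 ± 0.13 (limma adjusted p = 1.45e-06, 0.0131 and 0.0243), while the median of the list was 0.06. The count was 1 without saline replicate 3.

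Socs3 encodes the inhibitor that binds gp130 and JAKs, and its level was 9.57, 9.45 and 9.63 in IL-6 livers, against 6.61, 6.42 and 6.18 in saline livers. Of 29 targets of STAT3 in liver, which count Socs3 again, 10 rose and 0 fell, against 0.386% of all genes called higher. The median difference of the list was 0.35. The 10 were Socs3, Saa2 (4.33 ± 0.18), Saa1 (3.84 ± 0.28), Pim1 (1.52 ± 0.08), Jun (1.32 ± 0.13), Bcl3 (1.18 ± 0.08), Irf1 (1.07 ± 0.11), Junb (1.07 ± 0.10), Fga (0.98 ± 0.12) and Serpina3n (0.95 ± 0.12). Saa1, Saa2, Fga and Serpina3n encode acute-phase proteins, and these targets were listed with their response in these arrays already known.

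No gene passed in limma among 15 phosphatases, PIAS proteins and adaptors, 7 genes of receptor shedding and turnover, and 17 other receptors that use JAK kinases, against 0.421% of all genes. Their median differences were 0.05, 0.03 and 0.07. The smallest p in each list was at Ptpn2, a phosphatase of JAK1 and STATs (0.32 ± 0.09, limma adjusted p = 0.409), at Rhbdf2, which brings the sheddase ADAM17 to the cell surface (-0.27 ± 0.11, 0.727), and at Il22ra1, the IL-22 receptor chain of hepatocytes (-0.32 ± 0.10, 0.496).

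**Figure D4:**
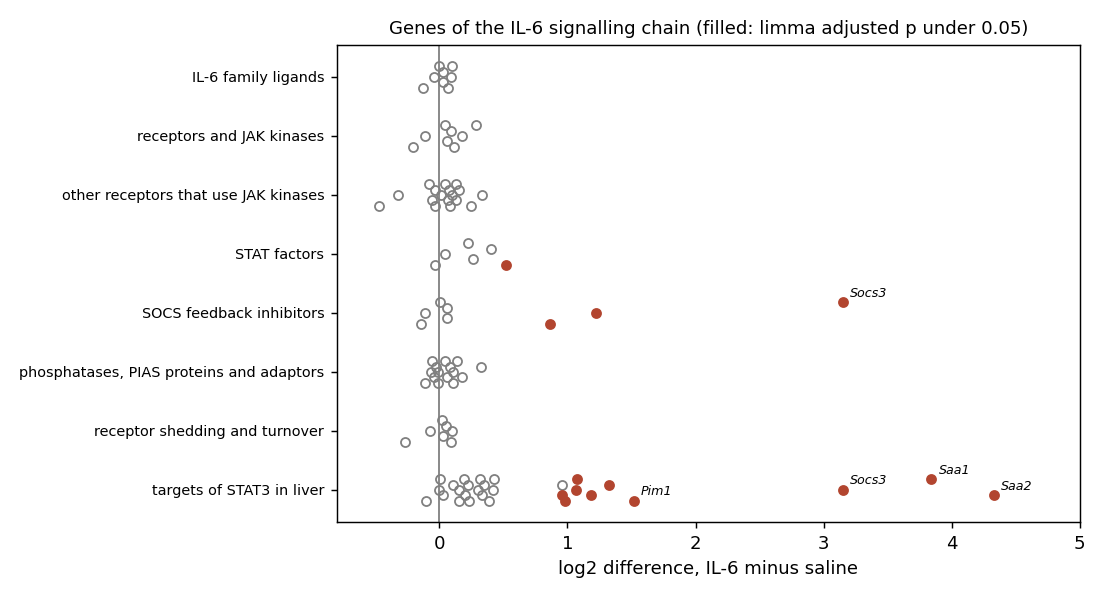
Log2 differences of IL-6 minus saline for single genes in 8 groups of the IL-6 signalling chain, filled where limma's adjusted p was under 0.05; the height of a point within its row has no meaning. The receptors and JAK kinases lie between -0.20 and 0.29 with no filled point, and filled points stand in the STAT factors, the SOCS feedback inhibitors and the targets of STAT3.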

How the data were processed

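The deposited values are log2 levels, 1 per probe set, which the authors obtained by RMA according to the submitters' processing notes. They came from liver RNA, measured with a biotin label on 1-colour Affymetrix arrays. RMA corrects background, quantile-normalizes arrays and summarises probes, which can remove a shift common to most genes; neither its version nor the array's genome build is stated in the sources used here. Scanner intensities were not used, so signal over background was not assessed, and the number of arrays limits precision.

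Of 35556 probe sets, 21789 had exactly 1 symbol in the platform table, 1621 several and 12146 none. For a gene with several, the probe set with the highest mean was kept, which left 19938 genes. The IL-6 and saline arrays were compared in limma 3.58.1 (lmFit, eBayes; R 4.3.3), two-sided, Benjamini-Hochberg adjusted over all genes at 0.05, and tested on simulated data. Named genes were the 8 measured members, the called genes of each pathway list or else the one with the smallest p, and 3 genes most like Il6st and Osmr. Summed marker levels are log2 of the sum of unlogged values. The members and lists were chosen with earlier results of these data known. The motif search, the interval comparison with 1.5-fold and the comparison of cell type markers with a single array were added after seeing values. So were the sums of reduced marker lists and the naming of single markers. Promoters came from RefSeq (GRCm38.p6). Figures used matplotlib 3.10.9 in Python 3.11.15.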

Additional observations from a re-analysis of the deposited data

How the results depend on the processing

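Under 18 alternatives (17 planned and 1 chosen after seeing the data, which left out both IL-6 replicate 3 and saline replicate 2), no receptor or kinase gene was called in limma. The lowest limma adjusted p was 0.153, for Il6st with a trend in the variance prior. Il6st stayed between 0.25 and 0.34 on the log2 scale and Il6ra between -0.26 and -0.12. Cntfr, for which the filter at the median level left no value, turned to 0.031 without those 2 arrays. Lifr ran from -0.017 (without saline replicate 3) to 0.13 on leaving out 1 array. Their causes were not tested.

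Over all genes, in place of 77 higher and 7 lower calls, limma gave 16 and 1 with every probe set tested, 31 and 2 without the 2 arrays, and 45 to 67 and 3 to 5 on leaving out 1 array. The SOCS count of 3 was 1 with every probe set tested and 1 to 2 on leaving out 1 array, and the count of STAT3 targets, 10, was 5 with every probe set tested. The STAT count of 1 was 0 with every probe set tested, without the 2 arrays and with the replicate block, and 0 to 1 on leaving out 1 array. Testing every probe set both adjusts over 35556 tests and lowers the prior degrees of freedom to 2.56, against 5.28 over genes, and these were not told apart. The other settings use fewer samples or residual degrees of freedom.

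Replicate numbers are shared by the groups, but deviations of same-numbered arrays correlated at 0.076, -0.12 and -0.087, so the numbers were not taken to pair samples. With the replicate block, 59 genes were higher and 6 lower.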
